A study of Mus musculus with 2 samples.

Results

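In mouse Stag3 KO GSCs, 514 regions of accessible chromatin were broad, only modestly enriched and placed at the end of a protein-coding gene. They are called wide low-fold regions here. Each was a replicate 1 peak that overlapped a replicate 2 peak by at least 1 bp, was 700 bp or wider in both libraries, had a fold enrichment below 10 in both, and had its replicate 1 summit within 1000 bp of a gene end. They made up 514 of the 17417 shared regions with a summit at a gene end, or 2.95% (95% Wilson interval 2.71 to 3.21%). The 17417 were 20.8% of the 83732 shared regions in all. Of 831 shared regions with this width and fold anywhere in the genome, 514 (61.9%, interval 58.5 to 65.1%) were at gene ends, and of 3750 gene-end regions at least 700 bp wide in both libraries, 514 (13.7%) had the low fold. They marked 569 of 21887 protein-coding genes, or 2.6% (2.4 to 2.82%), which is the background against which each gene group below is read. Of the 13959 genes with any shared gene-end region, 4.08% were marked. Width and fold chose these regions, so both are given as descriptions and with no test.

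Chromatin was assayed by ATAC-seq, in which a transposase inserts sequencing adapters into accessible DNA. The study had 1 group of 2 libraries, both from GSCs (the cell type as the labels abbreviate it) of the genotype Stag3 KO, in which the gene of a meiosis-associated subunit of the cohesin ring has been disrupted. All cells of the group had 2 reporters, Acrosin-EGFP with beta-Actin-EGFP (together AAG), and viable AAG-positive cells were sorted before the assay. The labels give neither the deleted part of Stag3 nor the culture each replicate came from, so their spread may be a technical one, and the wild-type cells named in the design were not analysed here.

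Many mammalian genes start inside a CpG island, a stretch rich in G, C and the CpG dinucleotide that escapes DNA methylation and is usually depleted of stable nucleosomes. At active island promoters, transcription factors and RNA polymerase keep a sharp site open, whereas the islands of many developmental regulators are held by Polycomb complexes in cells that do not use those genes. A peak caller summarises such a site by its width, by its summit, which is the position with most tags, and by the fold of tags at that summit over a local background. A peak list holds no expression and no histone mark, so neither the activity nor the Polycomb state of the genes named here was measured.

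The sequences at these gene ends show the range among the regions. Below are 300 bp promoter sequences from RefSeq on GRCm38.p6, read 5′ to 3′ on the gene's strand, from 250 bp before the annotated start to 50 bp after it, with every CpG in capitals. Each lay wholly inside the peaks of both libraries. Tmeff1 (chr4:48584924-48585223, + strand), Kansl1l (chr1:66817546-66817845, − strand) and Limch1 (chr5:66745639-66745938, + strand) are shown because they stood at the 3 widest regions. Among promoters that lay wholly inside both peaks, Kdm7a (chr6:39206724-39207023, − strand) had the most CpG and Tek (chr4:94739039-94739338, + strand) the fewest. Inafm1 (chr7:16273643-16273942, − strand) is shown for contrast, from the widest gene-end region with a fold of 10 or more in both libraries.
Tmeff1: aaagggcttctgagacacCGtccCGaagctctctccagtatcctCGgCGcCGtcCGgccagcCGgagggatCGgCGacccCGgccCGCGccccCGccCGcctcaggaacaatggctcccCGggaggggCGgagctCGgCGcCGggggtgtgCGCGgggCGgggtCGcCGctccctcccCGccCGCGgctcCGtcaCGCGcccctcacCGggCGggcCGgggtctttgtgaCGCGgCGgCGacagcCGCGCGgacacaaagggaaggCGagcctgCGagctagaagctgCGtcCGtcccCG
Kansl1l: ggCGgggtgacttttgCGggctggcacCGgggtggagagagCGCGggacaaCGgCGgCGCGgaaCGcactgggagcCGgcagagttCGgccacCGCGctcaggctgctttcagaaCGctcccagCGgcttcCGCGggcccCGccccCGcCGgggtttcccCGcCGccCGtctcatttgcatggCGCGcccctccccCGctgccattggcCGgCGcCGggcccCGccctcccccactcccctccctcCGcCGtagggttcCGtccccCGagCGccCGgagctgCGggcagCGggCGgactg
Limch1: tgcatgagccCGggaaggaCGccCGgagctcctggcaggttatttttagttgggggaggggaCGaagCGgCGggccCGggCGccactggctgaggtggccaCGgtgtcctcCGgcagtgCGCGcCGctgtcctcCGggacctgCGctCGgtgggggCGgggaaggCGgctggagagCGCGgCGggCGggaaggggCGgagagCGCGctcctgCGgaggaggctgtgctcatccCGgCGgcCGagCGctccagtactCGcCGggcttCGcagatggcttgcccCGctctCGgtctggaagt
Kdm7a: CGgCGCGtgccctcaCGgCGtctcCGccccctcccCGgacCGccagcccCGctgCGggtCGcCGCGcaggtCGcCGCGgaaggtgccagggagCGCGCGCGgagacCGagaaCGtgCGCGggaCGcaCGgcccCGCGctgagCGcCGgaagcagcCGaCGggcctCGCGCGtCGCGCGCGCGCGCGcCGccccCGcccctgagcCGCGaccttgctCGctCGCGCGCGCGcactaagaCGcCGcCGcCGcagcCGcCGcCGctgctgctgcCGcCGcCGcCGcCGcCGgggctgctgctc
Tek: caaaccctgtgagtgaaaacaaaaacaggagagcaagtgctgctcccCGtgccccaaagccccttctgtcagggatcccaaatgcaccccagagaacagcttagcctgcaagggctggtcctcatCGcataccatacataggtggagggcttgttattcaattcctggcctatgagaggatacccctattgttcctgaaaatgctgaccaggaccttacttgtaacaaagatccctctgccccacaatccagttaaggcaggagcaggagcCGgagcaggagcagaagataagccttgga
Inafm1: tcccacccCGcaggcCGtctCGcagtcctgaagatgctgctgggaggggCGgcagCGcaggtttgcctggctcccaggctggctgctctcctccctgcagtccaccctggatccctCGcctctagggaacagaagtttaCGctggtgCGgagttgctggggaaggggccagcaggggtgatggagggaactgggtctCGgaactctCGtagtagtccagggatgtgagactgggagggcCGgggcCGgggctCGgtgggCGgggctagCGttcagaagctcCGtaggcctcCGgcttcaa

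The 3 widest regions held 45 CpG (Tmeff1), 40 CpG (Kansl1l) and 35 CpG (Limch1) in 300 bp, and GC contents of 76.0%, 76.7% and 72.7% in the same order. The Kdm7a promoter reached 65 CpG and 82.7% GC, with long unbroken CG runs. The Tek promoter had 3 CpG and 52.0% GC, and so does not share the base composition of the others. The Inafm1 promoter lay between them, with 17 CpG and 66.3% GC.

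Replicate 1 held 107331 peaks and replicate 2 held 98986 peaks. Read depth is unknown, but fold and p-value together gave the number of tags under a summit. Of all protein-coding genes, 63.8% had a shared gene-end region. Genes that mark undifferentiated spermatogonia had one in 31 of 32 cases, and those of differentiating spermatogonia in 16 of 18. The same held for 18 of 30 markers of testis somatic and feeder cells and for 8 of 20 markers of endothelial and blood cells. Since a peak is not expression, the presence of other cells in the sort was not tested.

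The wide low-fold regions had close medians of width and of fold in the 2 libraries. Their median width was 902 bp in replicate 1 (range 700 to 1856 bp) and 910.5 bp in replicate 2 (700 to 2223 bp), a mean of 906.2 ± 6.01 bp (SD, n = 2). Their median fold was 8.01 in replicate 1 (3.42 to 9.97) and 7.93 in replicate 2 (3.44 to 9.98), a mean of 7.97 ± 0.056 (SD, n = 2). Each SD is between the 2 library medians, and the rule set the same limits in both libraries. Close medians therefore do not show that single regions had like values. The width of a region differed between libraries by a median of 86.5 bp, with an upper quartile of 204 bp. Among all peaks of a library the median region stood near the middle by fold, at percentile 45.7 in replicate 1 and 44.7 in replicate 2. By width it stood close to the top, at percentile 97.2 and 97.4.

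The wide low-fold regions had fewer tags at the summit than the equally wide regions of higher fold, and their median background was not higher. The median was 64 tags in replicate 1 and 67 in replicate 2 for the wide low-fold regions, against 164 and 182 tags for 2935 gene-end regions as wide but with a fold of 10 or more in both libraries (wide high-fold regions). In 5105 gene-end regions under 700 bp and below a fold of 10 in both libraries (narrow low-fold regions), the medians were 40 and 42 tags. The median local background was 7.40 and 7.92 tags for the wide low-fold regions, 8.92 and 9.36 for the wide high-fold regions, and 7.16 and 7.5 for the narrow low-fold regions. Single regions had a far higher background, such as H4c4 with 31.46 tags and the histone pair H3c1 and H4c1 with 65.58 tags in replicate 1, the highest. The summit of that pair held 276 and 245 tags, yet the fold was only 4.16 and 4.14. All of these quantities enter the fold, so they describe the choice and are not a separate result.

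**Figure D1:**
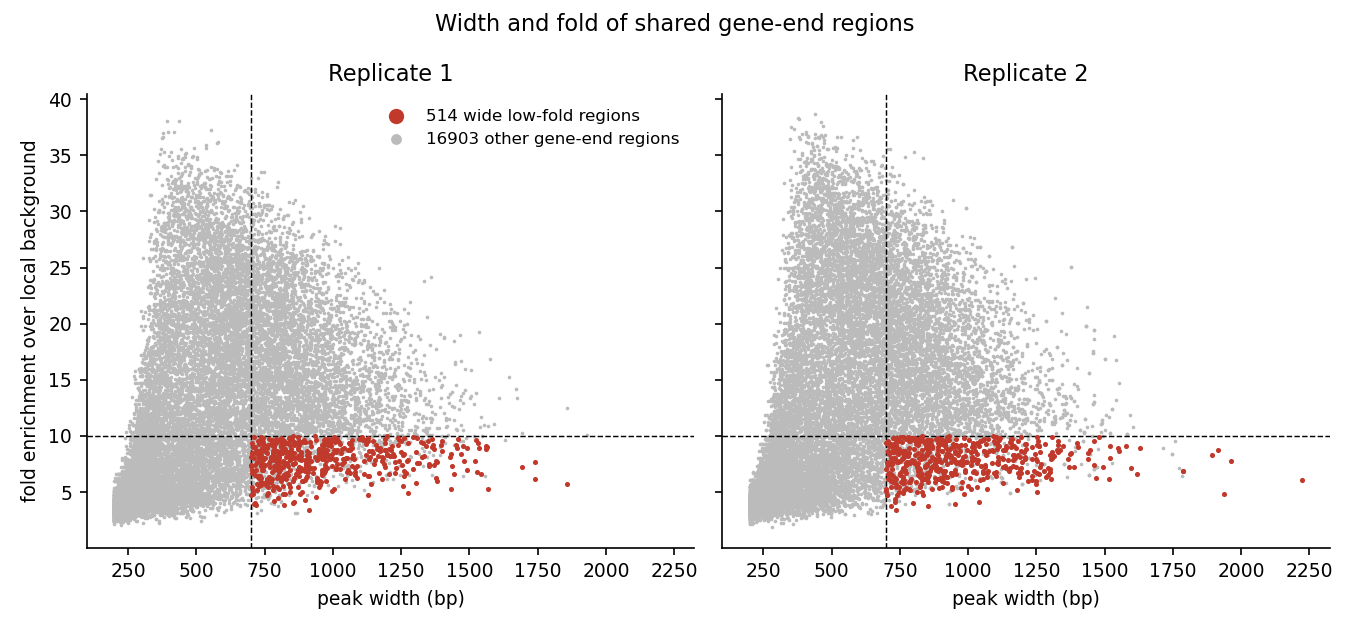
Fold enrichment (y axis) against width in bp (x axis) of every shared gene-end region, in replicate 1 and in replicate 2, with the wide low-fold regions picked out from the other gene-end regions. The picked regions fill the corner at 700 bp or more and a fold below 10, where their medians are 902 bp and 8.01 in replicate 1 and 910.5 bp and 7.93 in replicate 2.

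Membership depended on both libraries. In replicate 1, 1040 shared gene-end regions were wide and of low fold, and 514 of them (49.4%) were so in replicate 2 as well. Of the 1040, 336 (32.3%) were under 700 bp in replicate 2 and 250 (24.0%) had a fold of 10 or more there, with some doing both. Conversely, of the 1113 regions whose replicate 2 peak was wide and of low fold, 599 (53.8%) were not so in replicate 1. Each region is a replicate 1 peak, so a replicate 2 peak that overlapped several of them was counted several times. At Kansl1l, replicate 1 peaks of 246 and 271 bp were paired with the same 2223 bp replicate 2 peak as the wide low-fold region. The 599 therefore include split peaks. Replicate 2 taken alone had 910 wide low-fold gene-end peaks. Each library alone drew a class larger than the 514 regions that met the limits in both, which is built into a rule that asks both.

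The regions next to each limit show how finely the class was cut. The shared region of Acvr1, a BMP-type receptor, and Upp2 was 700 bp in replicate 1 and 858 bp in replicate 2 and was taken in, as was that of the tight junction gene Ocln, at 1087 and 700 bp. The mesoderm homeobox gene Meox2 (698 and 1129 bp) was left out, by 2 bp in replicate 1. By fold, Pxdc1 (8.81 and 9.98) and Dipk1b (9.97 and 9.38) were inside, whereas Kansl3 (10.0 and 8.63) and the cytokine gene Il15 (9.11 and 10.0) were outside. By distance, St3gal6 at 998 bp and Bach2 at 995 bp were inside, whereas Ptf1a, a pancreas and hindbrain regulator, at 1007 bp and Mrpl23 at 1016 bp were outside.

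The Tmeff1 region was the widest by the mean of both libraries. Tmeff1 encodes a transmembrane protein with follistatin-like and EGF-like domains. Its region (chr4:48584602-48586045 in replicate 1) was 1444 bp in replicate 1 and 1936 bp in replicate 2, with folds of 6.62 and 4.80 and 61 and 48 tags. The Kansl1l region (chr1:66817313-66818308) was 996 bp in replicate 1 but 2223 bp in replicate 2, the largest width in either library. Its folds were 8.36 and 6.05. The Limch1 region (chr5:66745327-66746860), at a gene for an actomyosin-binding protein, was the steadiest of the 3, with 1534 and 1579 bp, folds of 8.92 and 9.10, and summits 2 bp apart.

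The next regions by width stood at genes of varied function. Ppp1r3g, a glycogen-targeting subunit of protein phosphatase 1, had 1740 and 1293 bp (chr13:35968152-35969891) and summits 1369 bp apart, the largest distance among the regions. Trib1, a pseudokinase that directs proteins to degradation, had 1479 and 1548 bp (chr15:59647495-59648973) and folds of 7.80 and 8.96. Setd7, a lysine methyltransferase, had 1042 and 1916 bp. Others lay at Gnl1, a GTP-binding protein gene, with 1543 and 1462 bp, and at Hacd1, an enzyme gene of fatty acid elongation, with 1478 and 1519 bp. A further one lay between Lats1, a kinase of the Hippo pathway, and Pcmt1, a protein repair methyltransferase, with 1469 and 1479 bp.

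The lowest and the highest folds also fell on recognisable genes. Foxd2, a forkhead transcription factor gene, had the lowest mean fold, at 3.84 in replicate 1 and 3.44 in replicate 2, over 720 and 735 bp (chr4:114907727-114908446). Low folds did not always mean few tags. Ap3m2, an adaptor subunit of vesicle traffic, had folds of 4.05 and 3.73 with 115 and 122 tags, and the pair Fiz1 and Zfp524 had folds of 4.1 and 4.01 with 123 and 122 tags. Top2b, a topoisomerase gene, had folds of 3.42 and 4.39, and Bach2, a repressor of lymphoid cells, had 4.32 and 3.97. At the upper edge stood Nfkb1 (9.94 and 9.90), which encodes an NF-κB subunit, with Slc46a2 (9.91 and 9.89), Nrep (9.85 and 9.94) and the pair Ina and Nt5c2 (9.81 and 9.86). Trim28, a corepressor of KRAB zinc finger proteins, shared its region with Gm31649, at 9.80 and 9.78 with 239 and 262 tags.

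The position of the summit was not part of the width and fold rule, apart from the limit of 1000 bp in replicate 1, and it was less fixed than in the other classes. The summits of the 2 libraries lay a median of 64.5 bp apart in the wide low-fold regions (quartiles 15 and 301 bp), against 10 bp in the wide high-fold and 26 bp in the narrow low-fold regions, and 16 bp over all shared gene-end regions. They lay over 100 bp apart in 225 wide low-fold regions (43.8%), against 5.96% of wide high-fold regions and 12.8% of narrow low-fold regions. They lay over 300 bp apart in 131 (25.5%), against 2.49% and 2.0%. Regions are not replicates of a condition, so these shares carry no test, and summit tags differ between the classes as given above.

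Regions with a like number of tags were therefore set side by side, a comparison chosen after these values were seen. Among regions with 50 to 100 tags in both libraries, the summits lay over 100 bp apart in 106 of 240 wide low-fold regions (44.2%) and in 69 of 433 wide high-fold regions (15.9%). The share was 5.01% of 1078 narrow low-fold regions. Median distances were 67, 22 and 18 bp in the same order, with median tags of 67 and 70, 78 and 78, and 65 and 68 in the 2 libraries. A wide peak has more room for 2 summits to differ than a narrow one, so only the first 2 classes are of like width.

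**Figure D2:**
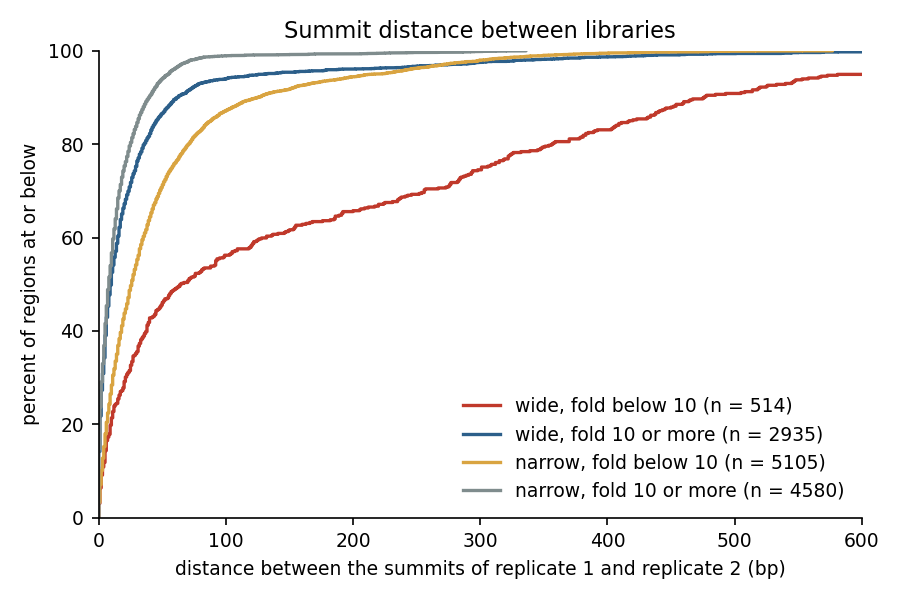
Cumulative share of regions (y axis, percent) by the distance between the replicate 1 and the replicate 2 summit (x axis, bp), for each class of gene-end region. At 100 bp the wide low-fold curve has reached the lowest share of the classes, with 43.8% of its regions still beyond that distance, against 5.96% of wide high-fold and 12.8% of narrow low-fold regions.

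Single genes showed both patterns. At Gnaq, which encodes a G protein alpha subunit, the summits lay 995 bp apart within peaks of 1057 and 1215 bp. At Galnt3, a starter enzyme of mucin-type glycans, they lay 923 bp apart, and at the small GTPase gene Rhoc 790 bp apart. At Sox12, at the histone pair H3c1 and H4c1, at Spred1 and at Kdm7a, in contrast, the summits were at the same base in both libraries. These genes were named after their values were seen.

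Most of the regions lay at the start of their gene. The strand of the nearest gene was known for 407 regions, and in 387 of them (95.1%) the nearest end was the 5′ end, against 98.7% of 2382 wide high-fold regions, 84.8% of 3912 narrow low-fold regions and 90.4% of 13731 gene-end regions. The other 20 were nearest to a 3′ end. In Foxe3, a lens gene, and in H4c4, a histone gene, the 5′ end lay in the window as well. In Ppp1r3g, Mab21l2, C2cd4b and Phospho1 it did not. Nor did it at Notch4, a Notch receptor gene, whose summit was 934 bp from the 3′ end in a region of 713 and 1031 bp. In all, 11 regions (2.14%) had 3′ ends and no 5′ end in the window, against 0.75% of wide high-fold regions and 6.64% of all.

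A region usually marked 1 gene. In 58 regions (11.3%) the window held 2 or more protein-coding genes, against 17.0% of wide high-fold regions and 12.5% of all. It held the 5′ ends of 2 or more genes in 33 regions (6.42%), against 10.7% of wide high-fold regions and 6.47% of all. Examples of such pairs were Lats1 with Pcmt1 and Ina with Nt5c2. In the other direction, Fbn2, Dipk2a, Pigp and Ttc3 had 2 regions each and no gene had 3 or more. The regions of Dipk2a measured 1189 and 1163 bp and 723 and 746 bp. Pigp and Ttc3 share theirs, and there a single replicate 2 peak of 1786 bp covered replicate 1 peaks of 943 and 780 bp.

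Most of the regions had another shared region nearby, as did most gene-end regions. In 87 regions (16.9%) there was no other shared region within 10000 bp, against 47.5% of wide high-fold and 4.51% of narrow low-fold regions, and 22.7% of all. Of the 569 marked genes, 253 had another shared region at one of their ends, and in 64 that other region had a fold of 10 or more in both libraries. At Sox12, for instance, a narrow low-fold region of 628 and 355 bp lay at the gene in addition to the wide one. At Kansl1l and Setd7, in contrast, the other regions were replicate 1 peaks paired with the same replicate 2 peak as the wide region. All counts in this paragraph take in such split peaks, and no share over all genes was taken for the 253 or the 64.

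Within the peak, the start site lay somewhat to the upstream side of the middle. There were 365 promoter entries overlapping the replicate 1 peak, at 344 regions. The replicate 1 peak reached a median of 438 bp upstream and 532 bp downstream of the start in the wide low-fold regions, and the replicate 2 peak 426 and 522 bp. In the wide high-fold regions the peaks reached 436 bp upstream and 464 bp downstream in replicate 1, and 432 and 443 bp in replicate 2. The median downstream reach was thus 68 bp longer in replicate 1 and 79 bp longer in replicate 2, and the median upstream reach was nearly the same.

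The summits followed the same shift. The median summit was 30 bp upstream of the start in replicate 1 and 27 bp upstream in replicate 2, against 54 bp upstream in both libraries for the wide high-fold regions. Both summits were upstream in 166 of 365 cases (45.5%), against 72.6% of wide high-fold and 59.4% of narrow low-fold cases. Both were downstream in 118 (32.3%), against 19.2% and 27.1%. In 79 cases (21.6%) the 2 libraries placed the summit on opposite sides of the start, against 7.43% and 13.1%.

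**Figure D3:**
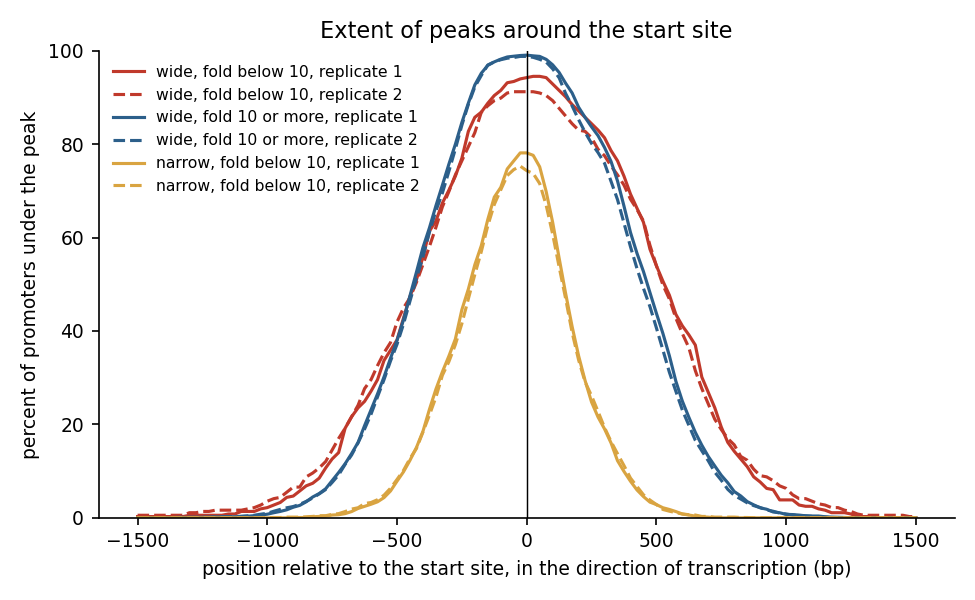
Share of promoter entries whose replicate 1 and replicate 2 peak covers each position (y axis, percent) by distance from the annotated start in bp (x axis, negative upstream), for each class of gene-end region. The wide low-fold and wide high-fold regions reach about as far upstream, with medians of 438 and 436 bp in replicate 1, and the wide low-fold regions reach farther downstream, with medians of 532 and 464 bp. At the tails they cover more promoters on both sides.

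The promoters at these regions were the richest in G and C of the classes compared. Their median GC content was 69.7% (quartiles 62.3 and 75%, 365 entries), against 63.5% at wide high-fold, 62.7% at narrow low-fold and 59.3% at narrow high-fold regions. Over all 21238 promoter entries it was 56.3%, and for genes without a shared gene-end region it was 47.7%. The median number of CpG in 300 bp was 29, against 24, 20.5 and 19 in the same classes, 13 over all entries and 3 for genes without a region. The ratio of observed to expected CpG was 0.850, against 0.810, 0.745 and 0.742, and 0.567 over all entries. Of the 365 entries 234 lay wholly inside the peaks of both libraries, so these values describe promoters and not the peaks as a whole.

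The rule did not use base composition, although the amplification and the transposase are known to depend on it, and the part of such dependence in these values was not tested. The gap to the wide high-fold regions was as large among regions of 50 to 100 tags in both libraries. There the median GC content was 71.3% in 177 wide low-fold entries and 63.8% in 322 wide high-fold entries.

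Read the other way, the share of wide regions that were of low fold was larger at higher GC content of the promoter. Among 2635 wide gene-end regions with a promoter entry, of low fold in both libraries or of high fold in both, 87 of 230 (37.8%, Wilson interval 31.8 to 44.2%) were of low fold where GC content was 75% or more. With 70 to 75% GC the share was 80 of 404 (19.8%, 16.2 to 24.0%). Between 55 and 70% GC it was 8.94 to 9.95% in each step of 5 points, and below 55% it was 24 of 403 (5.96%). A region with several promoter entries was given the lowest of their GC contents. The window held the 5′ ends of 2 or more genes in 10.7% of wide high-fold and 6.42% of wide low-fold regions. How far this choice moved the shares was not tested. Within the wide low-fold regions themselves, GC content was only loosely tied to the measures of the peak. Over 344 regions, Spearman's rank correlation was 0.21 between GC content and mean width and -0.11 between GC content and mean fold. These describe regions that share both libraries and carry no p.

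**Figure D4:**
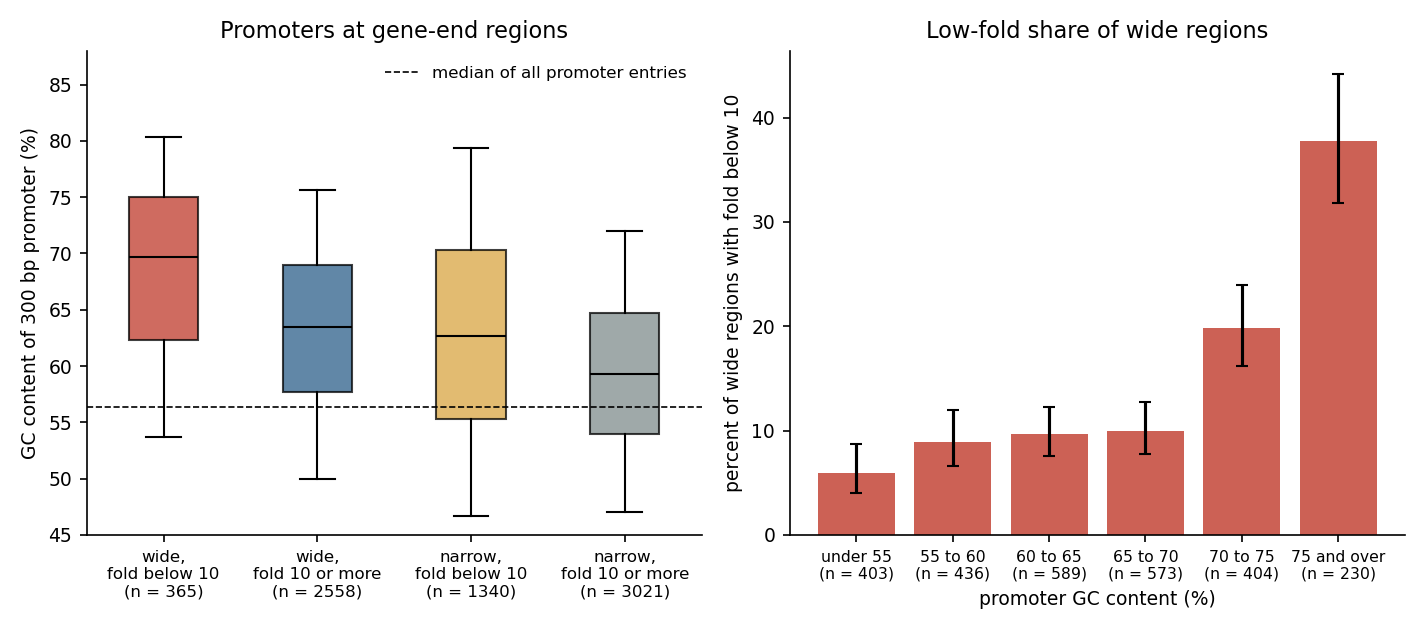
Left, GC content (percent) of 300 bp promoters in the wide low-fold, wide high-fold, narrow low-fold and narrow high-fold regions, with boxes at the quartiles and the median and whiskers from the 5th to the 95th percentile; the dashed line is the median of all promoter entries. Right, the share of wide gene-end regions that were of low fold in both libraries (percent, with 95% Wilson intervals) by the GC content of the promoter (the lowest where a region had several). The wide low-fold median of 69.7% is the highest of the boxes, and the share on the right is 37.8% in the last step, against 5.96% in the first.

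Single promoters at these regions ran from 38.33 to 86.0% GC, against 12.33 to 89.33% over all promoter entries. Jag2, which encodes a Notch ligand, had 86.0% GC and 63 CpG, and its region of 798 and 1046 bp had folds of 6.95 and 7.33. Kif2a, a kinesin that takes microtubules apart, had 57 CpG and 81.7% GC. At the other end, Snrnp35, a component of the minor spliceosome, had 38.33% GC, and Slc5a7, the choline transporter, had 44.67% GC and 1 CpG. The Tek gene encodes an endothelial receptor kinase, and its CpG-poor promoter sat in peaks of 850 and 848 bp with folds of 9.63 and 9.30. Rnf225 had 5 CpG in 300 bp.

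Short sequence motifs were counted on both strands of the same 300 bp. The letters GGGCGG, bound by Sp and Klf factors, were in 292 of 365 promoters at wide low-fold regions (80.0%), against 73.9% at wide high-fold regions, 66.3% at narrow low-fold regions and 46.2% of all promoters. The letters CCAAT, bound by NF-Y, were in 69 (18.9%), against 38.4%, 25.9% and 38.2%. The letters CCGGAA, the core bound by ETS factors, were in 61 (16.7%), against 32.3%, 15.4% and 18.7%.

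The less common motifs were near the level of all promoters or below it. TATAAA was in 20 promoters (5.48%), against 12.6% of all. CACGTG, an E-box, was in 30 (8.22%), against 7.84%. TGACGTCA, the cAMP response element, was in 8 (2.19%), against 2.24%. A match is only a run of letters, promoters rich in G and C hold more letters of some motifs than of others, and binding was not measured.

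Marked genes had a higher median length than the genes of the other classes. It was 31.1 kb (quartiles 10.2 and 92.9 kb), against 26.4 kb (11.6 and 58.1 kb) for genes at wide high-fold regions, 22.5 kb at narrow low-fold regions, 17.2 kb over all protein-coding genes and 8.81 kb for genes with no shared gene-end region. The upper quartile differed more than the median did. The regions occurred on each autosome and on X. The share of gene-end regions that were wide and of low fold was highest on chromosome 9, at 45 of 922 (4.88%, 3.67 to 6.47%), and lowest on X, at 10 of 638 (1.57%, 0.854 to 2.86%). None of the 10 gene-end regions on Y was of this kind.

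What the regions mark was described with 34 lists of genes. A share is read against the 2.6% of all protein-coding genes. The share was above it in 18 lists and 12 lists held no marked gene, while 64 of the 569 marked genes stood in any list. The lists hold from 6 to 1459 genes, so a single gene moves the share of a short one by many points, and no list was tested. The lower limit of the Wilson interval was above 2.6% in 7 lists, which were Sox, DNA methylation and Polycomb, FGF to Notch signalling, forkhead, homeobox, bHLH and potassium channels. The 2.6% also counts genes with no shared gene-end region. Among genes with such a region, 7.78% (homeobox) to 16.7% (Sox) were marked in these 7 lists, against 4.08% of all such genes. No interval was taken for those shares, so whether each list clears the 4.08% was not tested. The upper limit of the interval was below 2.6% in 1 list, the olfactory and vomeronasal receptors. Only 23 of those 1459 genes had any shared gene-end region, too few to tell their 0 from the 4.08%. For every other list, those with no marked gene included, the interval takes in the background.

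Transcription factors of development were among the lists above the background. Of 19 Sox genes 3 were marked (15.8%), of 44 forkhead genes 4 (9.09%), of 56 developmental bHLH genes 4 (7.14%), of 106 homeobox genes outside the Hox clusters 7 (6.6%) and of 55 developmental zinc finger genes 3 (5.45%). In the homeobox list just 1 gene had a wide high-fold region (0.943%, against 15.6% of all genes). A narrow low-fold region stood at 60 of its 106 genes, against 4471 of all 21887 protein-coding genes. The 15.6%, here and below, also counts genes with no shared gene-end region. It stands for 3422 genes, whereas 13959 genes had any shared gene-end region. No Sox gene had a wide high-fold region. The Hox clusters went without: 0 of 39 Hox genes were marked, although 31 had a shared gene-end region, and in 24 at least 1 such region was narrow and of low fold. Hoxa11, for example, had a region of 277 and 260 bp with folds of 3.60 and 3.75. The 9 Pax genes, 16 T-box genes and 6 Gata genes held no marked member either.

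Sox21, a regulator of neural progenitors, had the widest region of the Sox genes. It measured 1275 bp in replicate 1 and 1253 bp in replicate 2 (chr14:118236247-118237521), with folds of 4.93 and 4.96 and 56 and 58 tags. Sox13 had 719 and 952 bp with folds of 6.93 and 7.80. Sox12 just met the minimum width, with 704 and 709 bp, but had many more tags at its summit, at 221 and 276. The 3 genes therefore had a wide peak in common but not the number of tags under its summit.

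Among the homeobox genes, Vsx1, a gene of retinal bipolar cells, had 1262 and 952 bp (chr2:150687964-150689225) and folds of 9.81 and 8.62. Barx1, a gene of stomach and tooth development, had 1306 bp in replicate 1 but 706 bp in replicate 2, with folds of 5.79 and 6.61. Nkx2-9 showed the reverse, with 711 and 1235 bp and summits 742 bp apart. Lmx1a, a regulator of midbrain dopamine neurons, had 834 and 975 bp with folds of 7.54 and 5.32. The widths of these genes thus differed between libraries by 141 to 600 bp. Cdx2, Nkx2-6 and Rax, which act in trophectoderm and intestine, in pharyngeal endoderm and in the eye field, had 834 and 852 bp, 731 and 808 bp, and 708 and 725 bp.

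The forkhead genes ranged over the class. Foxm1, a driver of genes of cell division, shared its region with Rhno1, at 1128 and 1213 bp with folds of 9.59 and 8.80. Foxe3 had 1013 and 1074 bp, and Foxq1 had 746 and 777 bp with 113 and 97 tags. Foxd2 held the lowest mean fold of all, as given above. Of the bHLH genes, Tal1, a master regulator of blood formation, had 968 and 986 bp (chr4:115056300-115057267) with folds of 6.71 and 4.84. Scx, a tendon gene, had 780 and 997 bp, Olig3, a spinal cord gene, had 897 and 853 bp, and Twist1, a mesenchyme gene, had 806 and 851 bp. Among zinc finger genes, Klf14 had 1083 and 722 bp, Osr1, a kidney and heart regulator, had 702 and 706 bp, and Tshz1 had 940 and 737 bp in a region shared with Zadh2.

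The shares of signalling genes were also above 2.6%. Of 76 genes of the FGF, BMP, Hedgehog and Notch pathways 7 were marked (9.21%), and of 46 Wnt ligands and receptors with their secreted modulators 3 (6.52%). The 3 Wnt genes were all secreted frizzled-related proteins, which bind Wnt ligands outside the cell. Sfrp5 had 1152 and 1262 bp (chr19:42201180-42202331) with folds of 7.53 and 8.57, Sfrp4 had 876 and 901 bp with 6.91 and 6.25, and Sfrp2 had 868 and 879 bp with 6.71 and 7.19. No Wnt ligand and no frizzled receptor was marked.

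In the first of these lists the marked genes were mostly ligands. Fgf18 had 892 and 1193 bp with 104 and 128 tags, Fgf5 had 950 and 883 bp, and the TGF-β family genes Gdf10 and Nodal had 778 and 1184 bp and 818 and 907 bp. The Notch ligand gene Jag2 was described above. Receptors were Fgfr3, with 997 and 1166 bp (chr5:33721468-33722464), folds of 8.03 and 7.82 and summits 12 bp apart, and Notch4, at its 3′ end. The fold of Nodal differed most among these between libraries, at 9.68 and 6.75.

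The machinery of DNA methylation and Polycomb was marked at 4 of 37 genes (10.8%). In the same list 10 genes had a wide high-fold region (27.0%, against 15.6% of all genes), so its share was above that of all genes for both kinds of wide region. A shared gene-end region of any kind stood at 33 of its 37 genes. Rybp, a subunit of variant PRC1, had 1028 and 1020 bp (chr6:100287349-100288376), folds of 9.27 and 9.0 and summits 2 bp apart. Jarid2, a PRC2 cofactor, had 911 and 914 bp with 131 and 144 tags. Its summits, in contrast, lay on opposite sides of the start, 62 bp upstream in replicate 1 and 471 bp downstream in replicate 2. The 5-methylcytosine oxidases Tet3 and Tet1 had 907 and 956 bp and 758 and 763 bp, with folds of 7.54 and 7.62 and of 4.71 and 6.33. Their widths differed between libraries by 3 to 49 bp, against a median of 86.5 bp over all 514 regions. PRC2's Aebp2 and PRC1's Bcor, named as listed genes without a wide region, had regions of 221 and 432 bp and of 242 and 282 bp.

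Genes of nerve and matrix were marked in small numbers. Of 80 potassium channel genes 5 were marked (6.25%), with Kcns3 at 1307 and 1009 bp, Kcna3 at 962 and 922 bp, and Kcng1, Kcnt1 and Kcnk4 between 708 and 1034 bp. Collagen genes gave 2 of 44 (Col1a2 and Col23a1) and axon guidance genes 2 of 69 (2.9%, Sema5b and Ntn1), near the background. Of the axon guidance genes with a shared gene-end region 3.51% were marked, under the 4.08% of all such genes. Neurotransmitter receptors gave 2 of 99 (2.02%, Adrb1 and Htr7) and cadherins 1 of 92 (Cdh2). With replicate 1 or replicate 2 left out, the axon guidance share was 11.6 or 7.25% and the neurotransmitter receptor share 6.06 or 8.08%, against 4.57 or 5.25% of all genes. Myelin basic protein, Mbp, was the marked gene among 30 somatic effector genes, with 876 and 852 bp.

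Lists of germ cell genes held 1 marked gene or none, numbers too small to tell from the background. None of 32 genes of undifferentiated spermatogonia was marked (upper limit 10.7%), although 31 had a shared gene-end region. With replicate 1 or replicate 2 left out, 15.6 or 9.38% of them were marked, so this 0 depended on asking both libraries. None of 41 genes of meiotic prophase was marked (upper limit 8.57%), and 12 had a wide high-fold region (29.3%, against 15.6% of all genes). A shared gene-end region of any kind stood at 40 of the 41, so the 15.6% is a low base for this list. Among 18 genes of differentiating spermatogonia Crabp1, which binds retinoic acid, was marked (5.56%), with 884 and 921 bp and folds of 8.47 and 6.34. Nodal was the single marked gene of 26 in the pluripotency list (3.85%). None of 22 cohesin and CTCF genes and none of 28 imprinted genes was marked.

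Several lists of genes that every cell uses held no marked gene but did hold wide regions of high fold. None of 77 mitochondrial ribosomal protein genes, 48 proteasome genes or 96 oxidative phosphorylation genes was marked, whereas a wide high-fold region stood at 20 (26.0%), 12 (25.0%) and 26 (27.1%) of them, against 15.6% of all genes. A shared gene-end region of any kind stood at 71, 45 and 84 of them. Of all genes 13959 had one, and 3422 of these had a wide high-fold one. Whether the lists exceed the share among such genes was not tested. The upper limits for the 0 counts were 4.75%, 7.41% and 3.85%, which take in the background. Psma2, a proteasome subunit, had 980 and 988 bp with folds of 19.4 and 21.6. The cytosolic ribosomal proteins had 2 of 80 (2.5%), both in regions shared with another gene. Rps18 shared its region with the galactosyltransferase gene B3galt4, at 1008 and 1057 bp and folds of 9.5 and 9.74. Gusb was the marked gene among 30 housekeeping genes (3.33%), at 746 and 733 bp.

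The remaining families held few or none. Of 394 Zfp zinc finger genes 8 were marked (2.03%), near the background, with Zfp523 the widest at 1200 and 1255 bp. A wide high-fold region stood at 86 of them (21.8%, against 15.6% of all genes), and a shared gene-end region of any kind at 318. Histone genes had 3 of 100. H4c4 had 971 and 899 bp with 300 and 305 tags, and H3c1 and H4c1 shared 1 region, and since histone genes are near-identical copies the authors' placement of their reads is uncertain. None of 1459 olfactory and vomeronasal receptor genes was marked, but only 23 of them had any shared gene-end region.

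**Figure D5:**
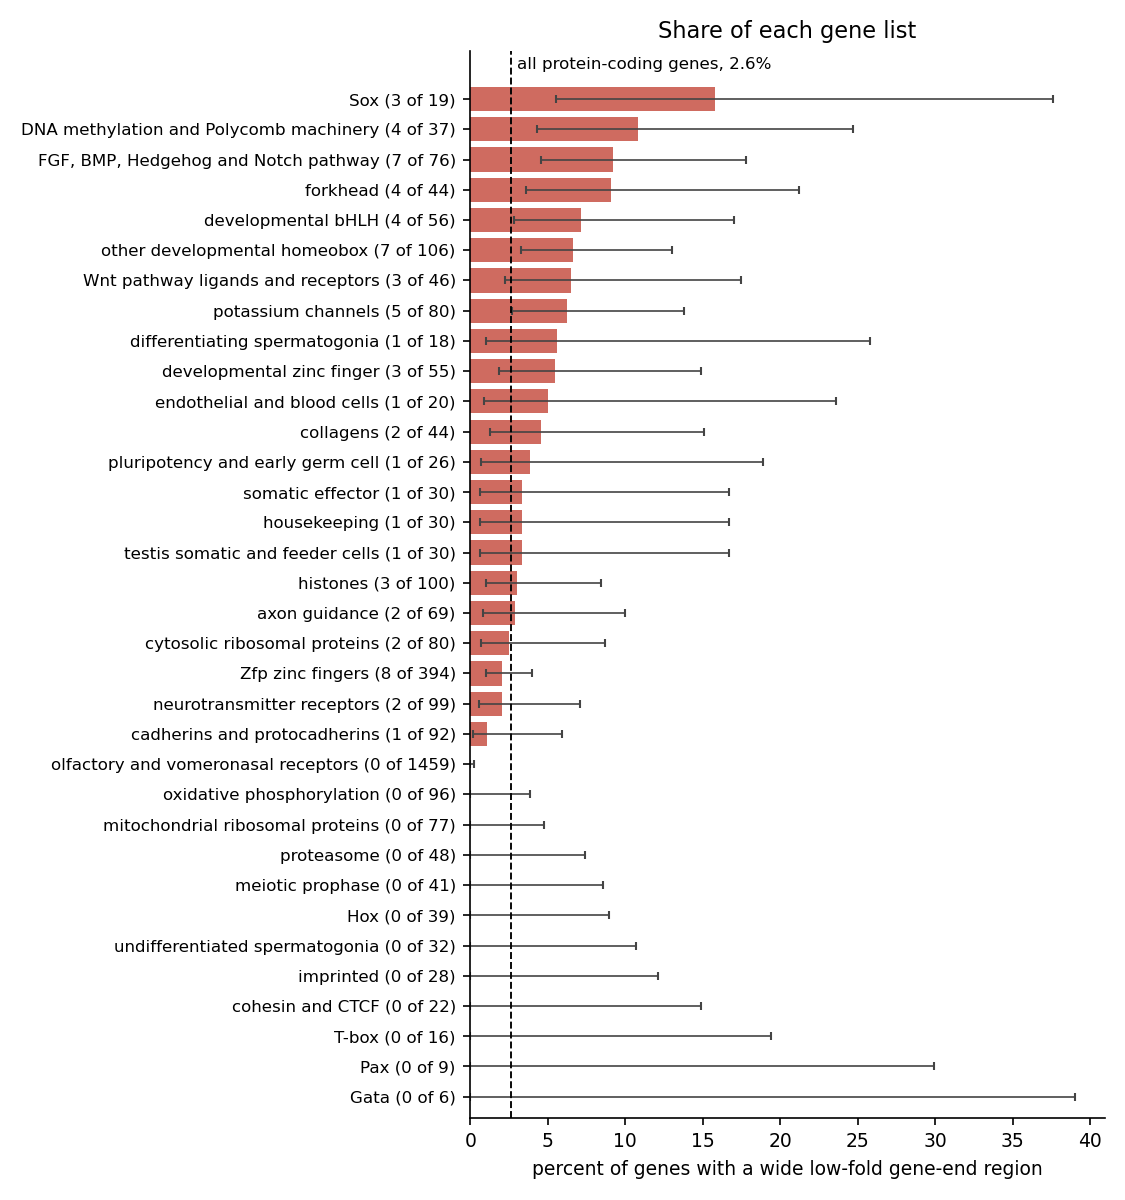
Share of each of the 34 gene lists (percent, x axis) with a wide low-fold region at a gene end, with 95% Wilson intervals that cover counting error only; the dashed line marks the 2.6% of all protein-coding genes. The Sox list stands highest at 15.8%, followed by DNA methylation and Polycomb machinery at 10.8%, and the intervals of most lists with any marked gene include the line.

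Since most marked genes stood in no list, 11 further families were counted after the marked genes had been seen, so their shares are no evidence that a family is favoured. Golgi glycosyltransferases and carbohydrate sulfotransferases gave 18 of 124 (14.5%), with B3galnt1 at 1491 and 1398 bp, B3gat1 at 1295 and 1253 bp and Galnt3 at 1251 and 917 bp. In the same family 27 genes (21.8%, against 15.6% of all genes) had a wide high-fold region, and 104 had a shared gene-end region of any kind. Inhibitors of cytokine, Ras and TGF-β signalling gave 5 of 19 (26.3%), among them Socs1 with 1350 and 1173 bp and 189 and 137 tags, and Smad7 with 1261 and 1045 bp and folds of 6.40 and 9.58. Spred1 had 997 and 939 bp with folds of 5.12 and 6.71, and Socs2 and Trib1 completed the 5.

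Histone lysine methyltransferases and demethylases gave 5 of 43 (11.6%). Setd5 was the widest of them in replicate 1, at 1562 and 1153 bp, and had 234 and 281 tags, while the demethylase Kdm7a, whose promoter is printed above, had 1058 and 868 bp. The others were Setd7, Nsd2 and Kmt5b. Kelch-like adaptors gave 5 of 37 (13.5%), heterotrimeric G protein subunits 4 of 33 (12.1%) and receptor-type tyrosine phosphatases 3 of 20 (15.0%). Deubiquitinases and conjugating enzymes of the Usp and Ube2 families gave 7 of 86 (8.14%), solute carriers 18 of 382 (4.71%), Trim ligases 3 of 68 (4.41%) and Tmem genes 6 of 235 (2.55%). With these families included, 148 marked genes stood in a list and 421 in none.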

How the data were processed

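Sorted Stag3 KO GSCs were assayed by ATAC-seq in 2 libraries, which formed 1 group by their titles. The submitters' processing notes list MACS2 2.1.1 and Bowtie2 2.3.4.1, with Trim Galore, deepTools 3.5.0, Picard 2.18.23 and bedtools 2.29.2, and the builds mm10 and GRCm38.p3. Tool settings, duplicate removal and any Tn5 shift, which can move summits and change widths, are not given in the sources used here. The authors deposited 1 peak list per library, so peaks were not called on pooled reads. Each deposited peak had a fold enrichment at the summit (a ratio to the local background), its p-value and q-value as −log10, and a score that was not used further. Fold and widths are the authors' values for each peak.

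Peaks were paired by an overlap of at least 1 bp, taking the replicate 2 peak with the largest overlap. Gene ends came from RefSeq on GRCm38.p6 (21887 protein-coding genes). Strand and 300 bp promoters came from the RefSeq promoter table, which matched 17492 of these genes and 454 of the 569 marked genes. It had no entry on chromosome 18, so those genes have no promoter value here. Tags and background at each summit of the shared gene-end regions were recovered from the fold, which is (tags + 1) divided by (background + 1), and the Poisson p-value. A unique whole number was found for 100% of these regions within a relative tolerance of 1e-05 plus 0.0001. This recovery, the overlaps and the assignment to gene ends were tested on simulated data. Depth in reads is unknown. Wilson intervals cover counting error only, since neighbouring regions and PCR copies are not independent. No test was run, because there was 1 group and regions are not replicates.

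The regions and the gene lists were chosen with earlier results of these data known. Named genes were those at the 10 widest regions, the 5 of highest and 5 of lowest mean fold, up to 4 marked genes per list with the widest regions and the first 2 alphabetically without one, genes with 3 or more regions, and the 2 on each side of each limit. Some genes that this rule names, and 1 of the added families, are not reported here. Other named genes were picked after their values were seen. Alternatives were minimum widths of 500 and 1000 bp, fold limits of 8 and 12, windows of 500 and 2500 bp, an overlap of 50% of both peaks, −log10 q of at least 5, the replicate 2 summit, and each library alone. Python 3.11.15 with pandas 2.3.3, numpy 2.4.6, scipy 1.17.1 and matplotlib 3.10.9 was used.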

Additional observations from a re-analysis of the deposited data

How the results depend on the processing

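The size of the class follows its limits. With a minimum width of 500 bp there were 1173 regions at 1252 genes (6.74% of shared gene-end regions), and with 1000 bp there were 116 regions at 132 genes (0.666%). With a fold below 8 there were 178 regions at 196 genes (1.02%), and below 12 there were 901 regions at 998 genes (5.17%). A window of 2500 bp gave a share of 2.69%. Leaving out 1 library, so that the other alone decided, gave 910 to 1044 regions, 1000 to 1150 genes and shares of 4.73 to 5.43%. At a minimum width of 1000 bp, 7 lists were above the share of all genes, instead of 18. The homeobox, bHLH, zinc finger and FGF lists fell to or below that share there, and the potassium channels did so with a fold below 8. The forkhead, Sox, Wnt, axon guidance (2.9% as reported, near the background) and DNA methylation lists were above it in all 11 settings, neurotransmitter receptors in 5 and undifferentiated spermatogonia in 4, and the Hox, Pax, Gata, cadherin, proteasome, oxidative phosphorylation, olfactory, meiotic and cohesin lists in none. The ratio of observed to expected CpG was 0.883 at 1000 bp and 0.809 to 0.849 with 1 library left out. The share nearest to a 5′ end was 92.1% with a fold below 8, 97.7% with a window of 500 bp and 94.6 to 94.7% with 1 library left out. Median GC content, whose alternatives were added after seeing the data, was 68.0% at 500 bp, 72.0% at 1000 bp, 71.3% with a fold below 8, and 69.0% with a fold below 12, with a window of 500 bp and with start sites within 250 bp of the summit. It was 68.0 to 68.7% with 1 library left out. The cause of these shifts was not tested. No paired analysis was possible because the series has 1 group of 2 libraries. The median summit held 64 and 67 tags, and how far that number limits the position of summits was not tested.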
